A study of Mus musculus with 6 samples.

Results

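Of 22028 protein-coding genes counted in B16 melanomas, 48 formed a set that was gained in all 3 tumors grown from ATM knockout cells. A gene was a member if its lowest level among the knockout tumors was at least 2 times its highest level among the control tumors and its mean in the knockout tumors was at least 2 CPM, the unit that scales a gene's count by the summed gene counts of its library. Potassium channel genes with symbols that start with Kcn, cadherins with symbols that start with Cdh or Pcdh, and Sox9, Miga1 and Igf2bp3 were left out by name, and 5 genes that met both thresholds (Cdhr2, Kcnj13, Miga1, Igf2bp3 and Sox9) were dropped for that reason. The 48 members were 0.405% of the 11866 coding genes that reached the level minimum, and the mirrored rule for loss in every knockout tumor took 33 of 11846 coding genes, or 0.279%. The knockout-against-control contrast chose the members, so their levels and ratios are a description and carry no test.

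B16 is a transplantable melanoma line of the C57BL/6 mouse. Cells carrying a vector control or an ATM knockout were placed under the skin of C57BL/6J hosts, about 100000 cells at a time, and total RNA was taken from tumor tissue on day 13. Each group held 3 tumors, all of strain C57BL/6 per the labels, and the labels name no change of Atm in the hosts, whose own cells make up part of every tumor. How ATM was disrupted is not stated in the labels, nor is it stated if the injected knockout line was clonal or pooled, or if every tumor had a host of its own. P-values given for other genes therefore measure only the spread between these 6 tumors, and the genotype cannot be told apart from the particular cells that carry it. A tumor is a mixture of cells, so fewer cells of a type and less RNA per cell cannot be told apart in any value given here.

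ATM is a protein kinase that is activated by broken DNA and switches on cell cycle checkpoints and repair. Melanocytes and the melanomas that arise from them descend from the neural crest, which also gives rise to the neurons and glia of the peripheral nervous system. Much of the identity of a cell is set by keeping genes of other tissues silent, through DNA methylation at CG dinucleotides, Polycomb complexes and the lack of activating factors.

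Gene counts summed to between 22101124 and 29037715 per tumor, so 3 counts correspond to 0.103 to 0.136 CPM, and this counting limit applies to the lowest values below. Atm itself was measured at 106, 106 and 95.4 CPM in control tumors 1, 2 and 3 and 100.2, 134 and 108 CPM in knockout tumors 1, 2 and 3, overlapping levels with an edgeR log2 fold change of 0.10 ± 0.13, adjusted p = 0.707 (log2 fold changes are knockout minus control, ± SE). The RNA of the targeted gene therefore does not check the genotype labels. Control tumor 3 and all the knockout tumors held more skeletal muscle RNA than the other controls. The mean log2 (CPM + 0.5) of 10 muscle markers was 1.37, 2.61 and 9.07 in control tumors 1, 2 and 3 and 7.70, 9.16 and 5.77 in knockout tumors 1, 2 and 3. Melanocyte markers were high in all 6 tumors, with a list mean between 9.85 and 10.26 in the controls and between 10.05 and 10.20 in the knockouts. Over 12 marker lists of tumor and host cell types, edgeR called 0 of 82 tested genes higher and 1 lower. DESeq2 called 5 and 2 of them, and 9 and 6 had an edgeR p under 0.05 before adjustment. Adipocyte markers had a list mean of 0.11 to 5.25 in the controls and 1.44 to 3.17 in the knockouts, and erythroid markers 3.04 to 6.52 and 0.80 to 5.84.

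The members ranged widely in level. Mean levels in the knockout tumors ran from 2.02 to 310 CPM with a median of 7.80 CPM, with 19 members below 5 CPM and 3 above 100 CPM. In 17 members no control tumor reached 1 CPM, in 19 the highest control lay between 1 and 5 CPM, and in 12 it was 5 CPM or more. The ratio of the lowest knockout to the highest control level was at least 8 in 8 members, at least 4 in 13 and below 3 in 27, with a median of 2.76. Per kilobase of exon, Ephx1 at 102 RPKM, Cyb5a at 99.8 RPKM and Tgds at 58.6 RPKM had the highest mean levels in the knockouts, and Chst10 at 0.169 RPKM had the lowest. The set is therefore mostly of genes at low level, with a few abundant enzymes. Groups that did not overlap, knockout above control, were found in 2470 of the 11866 coding genes, or 20.8%, so the 2-fold gap and not the separation alone sets the members apart.

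**Figure D1:**
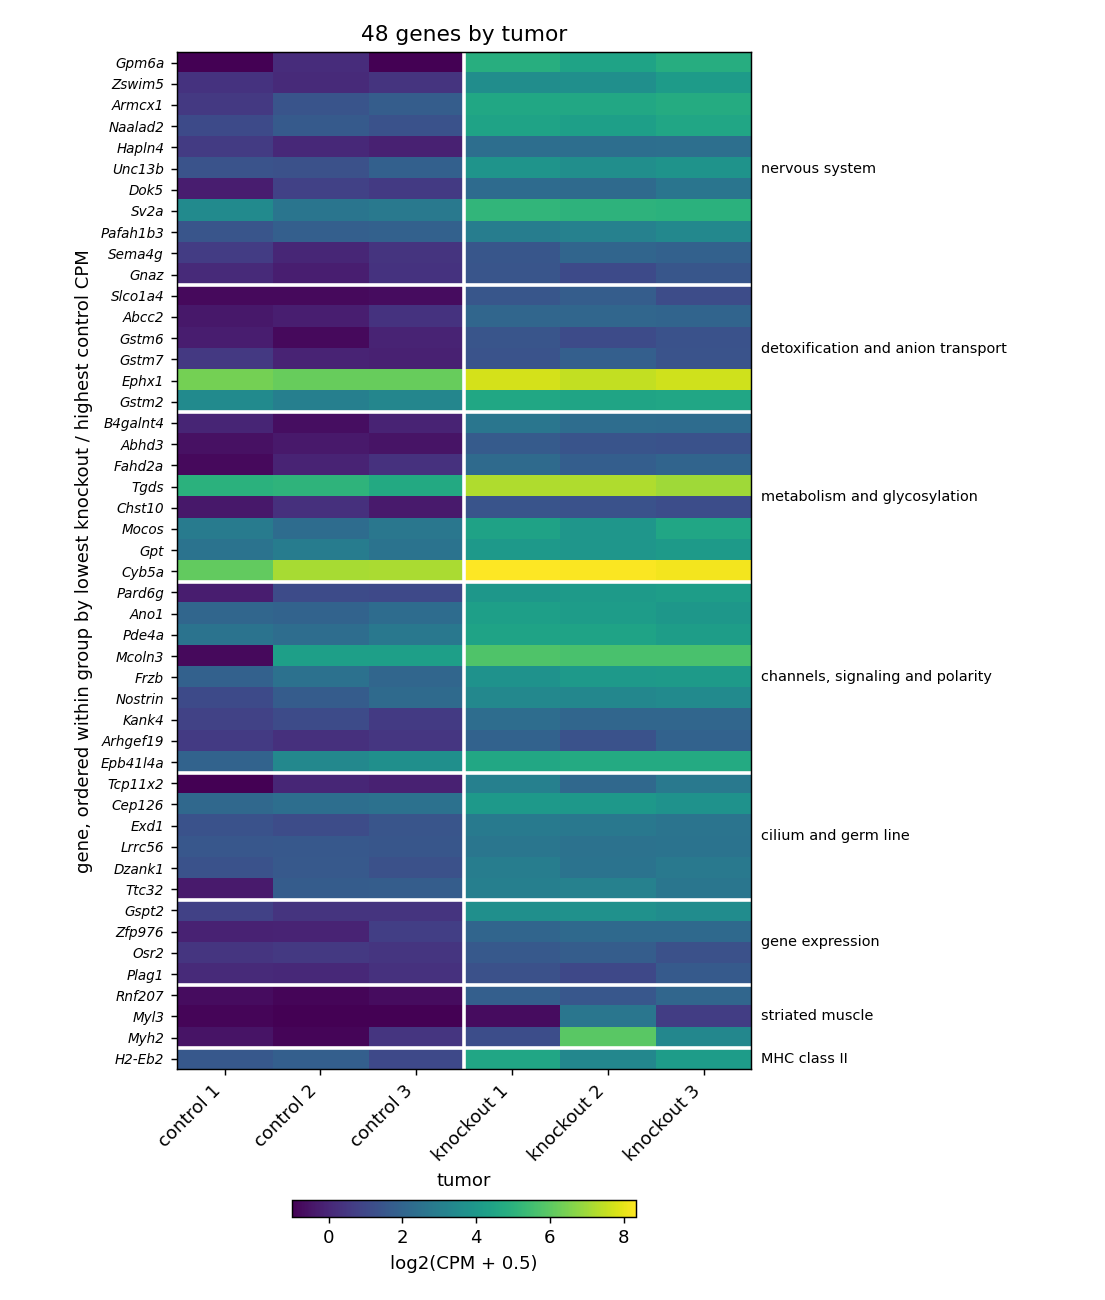
Level of each of the 48 genes (rows, grouped by function and ordered within a group by the ratio of lowest knockout to highest control level) in each of the 6 tumors (columns), as log2 (CPM + 0.5) by color. Rows are brighter in the 3 knockout columns than in the control columns, apart from Myl3 in knockout tumor 1, and Mcoln3, Pard6g and Ttc32 are darker in control tumor 1 than in control tumors 2 and 3.

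The 4 promoters below are shown because they span the range of sequence context among the most strongly gained or most abundant members. Each is 300 bases long, 250 before and 50 after a transcript start as RefSeq places it on GRCm38.p6, written 5′ to 3′ on the strand of the gene with every CG dinucleotide in capitals. Windows were found for 33 of the 48 members (68.75%), which is too few for a statement on the promoters of the whole set. The windows lie at chr8:54954478-54954777, plus strand (Gpm6a), chr6:141856171-141856470, minus strand (Slco1a4), chr4:116877152-116877451, plus strand (Zswim5) and chr14:118132716-118133015, minus strand (Tgds). The transcript start used lies 10, 21 and 26 bases from the GENCODE gene start for Tgds, Slco1a4 and Zswim5 and 115 bases before it for Gpm6a.
Gpm6a: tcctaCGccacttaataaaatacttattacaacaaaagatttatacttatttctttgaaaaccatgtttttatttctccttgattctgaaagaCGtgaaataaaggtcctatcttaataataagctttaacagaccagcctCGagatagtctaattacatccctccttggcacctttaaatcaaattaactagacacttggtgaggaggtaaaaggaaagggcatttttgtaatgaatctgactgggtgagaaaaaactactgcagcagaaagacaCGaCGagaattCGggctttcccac
Slco1a4: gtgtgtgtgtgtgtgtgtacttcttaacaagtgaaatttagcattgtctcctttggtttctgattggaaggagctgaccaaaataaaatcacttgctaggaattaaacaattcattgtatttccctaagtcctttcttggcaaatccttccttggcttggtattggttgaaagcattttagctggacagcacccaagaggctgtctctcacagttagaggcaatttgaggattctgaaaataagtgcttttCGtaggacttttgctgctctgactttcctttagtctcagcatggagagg
Zswim5: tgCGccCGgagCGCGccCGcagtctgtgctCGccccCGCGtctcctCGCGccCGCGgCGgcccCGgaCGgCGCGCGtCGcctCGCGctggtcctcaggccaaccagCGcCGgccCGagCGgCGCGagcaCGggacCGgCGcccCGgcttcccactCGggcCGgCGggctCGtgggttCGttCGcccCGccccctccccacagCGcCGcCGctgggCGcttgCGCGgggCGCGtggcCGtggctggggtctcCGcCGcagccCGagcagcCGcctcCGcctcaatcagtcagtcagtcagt
Tgds: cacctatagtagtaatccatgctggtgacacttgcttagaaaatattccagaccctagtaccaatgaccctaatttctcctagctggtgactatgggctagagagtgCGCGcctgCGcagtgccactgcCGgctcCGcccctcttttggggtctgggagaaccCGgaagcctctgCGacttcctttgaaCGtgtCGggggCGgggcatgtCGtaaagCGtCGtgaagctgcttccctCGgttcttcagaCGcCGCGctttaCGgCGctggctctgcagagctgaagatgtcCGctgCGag
The Zswim5 window holds 52 CG dinucleotides in 79.7% G + C, as many as or more than 99.4% of the 16521 coding promoters of the table, whose median is 14 and whose quartiles are 4 and 25. The Tgds window holds 21, the Gpm6a window 6 and the Slco1a4 window 1. Genes with CG-dense and CG-poor starts were thus both gained. On either strand, GGGCGG, the core of the Sp1 box, occurs in the Zswim5 and Tgds windows and in 48.2% of all coding promoters. CCAAT occurs in the Slco1a4 and Tgds windows and in 38.8% of all coding promoters, and TATAAA in the Gpm6a window and in 12.9% of them. These matches describe letters only.

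Genes best known from the nervous system formed the largest group, with 11 of the 48 members. Groups were assigned after the members were seen, and the share of such genes among all coding genes was not counted. The size of a group is therefore no result about the set. Gpm6a (ENSMUSG00000031517.8, chr8:54954843-55060871, plus strand, GRCm38), a membrane glycoprotein of the proteolipid family that promotes outgrowth of neurites, was measured at 0, 0.633 and 0 CPM in control tumors 1, 2 and 3 and 28.6, 21.2 and 27.6 CPM in knockout tumors 1, 2 and 3. Control tumors 1 and 3 held no read of the gene and control tumor 2 held 14, while the knockout tumors held 585 to 802, and the lowest knockout level was 33.4 times the highest control level, the largest such ratio of the set. The mean was 25.8 ± 4.02 CPM (SD, n = 3) in the knockouts against 0.211 ± 0.366 CPM (SD, n = 3) in the controls. Zswim5 (ENSMUSG00000033948.3, chr4:116877376-116989264, plus strand), a SWIM zinc finger protein studied in the developing mouse forebrain, lay at 0.805, 0.588 and 0.828 CPM in the controls and 11.5, 12.1 and 17.0 CPM in the knockouts, below 1 CPM in every control and 13.8 times higher at the closest pair of tumors.

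Armcx1, a protein of the outer mitochondrial membrane that takes part in the transport of mitochondria along axons, was measured at 0.974, 2.17 and 2.86 CPM in control tumors 1, 2 and 3 and 23.3, 24.0 and 26.2 CPM in knockout tumors 1, 2 and 3. The 3 knockout tumors lay close together, and the ratio of their lowest to the highest control level was 8.17. Naalad2 (ENSMUSG00000043943.14, chr9:18321951-18402995, minus strand), a relative of glutamate carboxypeptidase II with activity against the neuropeptide N-acetylaspartylglutamate, had 1.65, 2.67 and 2.07 CPM in the controls and 20.9, 18.7 and 22.7 CPM in the knockouts, with means of 20.8 ± 1.98 CPM (SD, n = 3) in the knockouts against 2.13 ± 0.512 CPM (SD, n = 3) in the controls. Sv2a, a glycoprotein of synaptic vesicles and the target of the antiepileptic drug levetiracetam, had 10.5, 5.66 and 6.29 CPM in the controls and 35.2, 32.2 and 30.5 CPM in the knockouts. Its control levels were not at the floor, so its gain was from a low to a moderate level rather than from near 0.

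Unc13b, which primes synaptic vesicles for release, ranged from 1.99 to 3.10 CPM in the controls and 11.9 to 13.7 CPM in the knockouts. Hapln4, a link protein that ties hyaluronan to proteoglycans in perineuronal nets, ranged from 0.414 to 1.06 CPM in the controls and 4.69 to 4.79 CPM in the knockouts, with a coefficient of variation of 1.01% among the knockouts, the smallest of the set. Dok5 is an adaptor of receptor tyrosine kinases in neurons, and its range was 0.339 to 1.27 CPM in the controls and 4.20 to 5.75 CPM in the knockouts. The remaining members of the group spanned smaller gaps. Pafah1b3, a catalytic subunit of the brain platelet-activating factor acetylhydrolase, ran from 2.29 to 3.27 CPM in the controls and 7.35 to 9.85 CPM in the knockouts. Sema4g, a transmembrane semaphorin, ran from 0.498 to 1.10 CPM in the controls and 2.37 to 3.62 CPM in the knockouts, and Gnaz, an inhibitory G protein alpha subunit of neurons and platelets, from 0.362 to 0.786 CPM in the controls and 1.63 to 2.31 CPM in the knockouts.

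Levels of general neuron markers overlapped between the groups. Of 12 such markers 8 were too low to test, Snap25 was listed at 0 in all 6 tumors, and the list mean of log2 (CPM + 0.5) lay between 0.29 and 0.56 in the controls and between 0.32 and 0.68 in the knockouts. edgeR called 0 of the 4 tested markers in either direction, of which 1 had an unadjusted p below 0.05, on the higher side, and 0 were called by DESeq2. Markers of Schwann cells, the glia of peripheral nerves, had a list mean of 3.26 to 3.47 in the controls and 3.62 to 4.28 in the knockouts, with 0 of 8 tested genes called by either tool and 0 at an unadjusted p below 0.05. The part of nerve tissue in the levels of the group was not tested beyond these values. Among 16 tested genes of synapse and excitability that were no members, 0 were called higher and 1 lower, the synaptic adhesion gene Nlgn1 (log2 fold change of -1.06 ± 0.22, adjusted p = 0.0486). The background over tested coding genes other than the members was 2.19% called higher and 3.03% called lower. Over all genes tested, edgeR called 2.21% higher and 2.75% lower, and DESeq2 called 6.5% higher and 8.12% lower. All edgeR calls named here come from the fit of all 6 tumors. Without knockout tumor 1 that test called 0 genes higher and 2 lower in place of 347 and 431, while 1110 and 1362 genes had a p under 0.05 before adjustment.

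**Figure D2:**
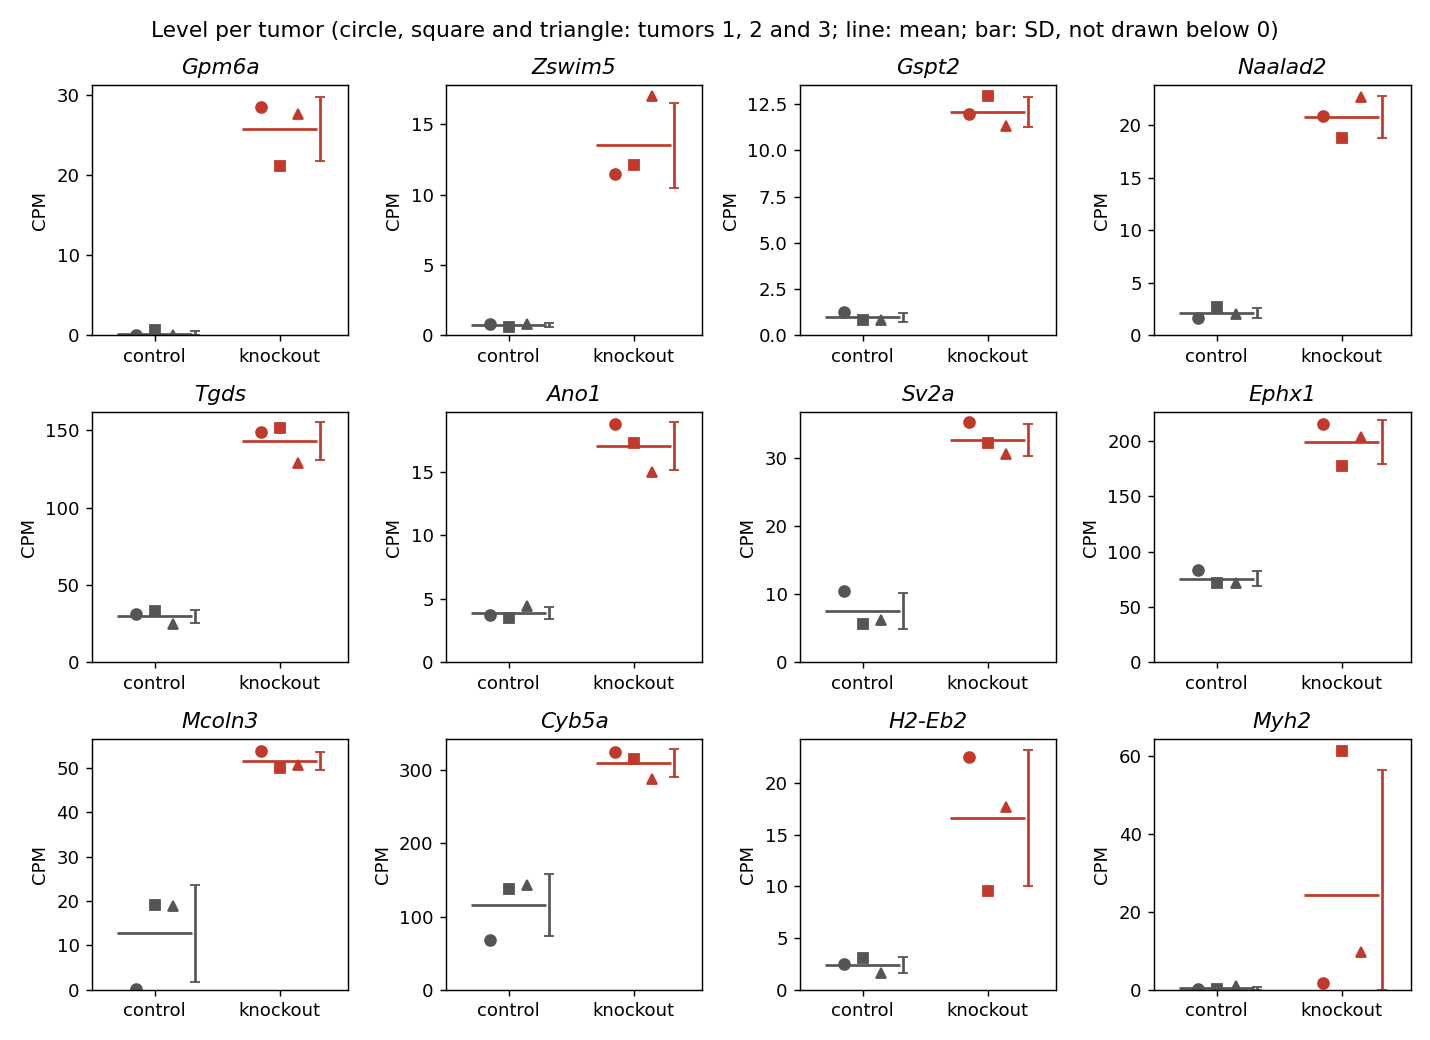
CPM of 12 of the genes in each tumor (circle, square and triangle for tumors 1, 2 and 3), with the mean as a line and the SD as a bar, not drawn below 0; each axis starts at 0. For Mcoln3, control tumor 1 sits near 0 and the other controls near 19 CPM, and for Myh2 the knockout tumors spread from 1.82 to 61.3 CPM.

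A group of 6 members handle foreign compounds and organic anions, functions best known from liver, kidney and intestine. Slco1a4, an organic anion transporter of the liver and the blood-brain barrier, was measured at 0.0847, 0.0905 and 0.124 CPM in control tumors 1, 2 and 3 and 2.32, 2.90 and 1.76 CPM in knockout tumors 1, 2 and 3. Its controls were at or below the level of 3 counts, at 7 reads over the 3 libraries, and its knockouts held 51 to 80 reads each. Abcc2, the pump that exports conjugated anions into bile, ranged from 0.254 to 0.786 CPM in the controls and 3.51 to 3.73 CPM in the knockouts. Ephx1, the microsomal epoxide hydrolase that converts reactive epoxides to diols, was abundant throughout at 83.3, 71.6 and 72.1 CPM in the controls and 216, 178 and 204 CPM in the knockouts, with means of 199 ± 19.6 CPM (SD, n = 3) in the knockouts against 75.7 ± 6.60 CPM (SD, n = 3) in the controls.

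The other detoxification genes are 3 glutathione S-transferases of the mu class, Gstm2, Gstm6 and Gstm7, which join glutathione to electrophiles and lie close together on chromosome 3. The gap between Gstm7 and Gstm6 is 7.03 kb and that between Gstm6 and Gstm2 is 38.0 kb. Gstm2 was the highest of them, at 10.5, 7.65 and 9.39 CPM in control tumors 1, 2 and 3 and 23.4, 21.4 and 22.4 CPM in knockout tumors 1, 2 and 3. Gstm6 ran from 0.0905 to 0.455 CPM in the controls and 1.70 to 2.28 CPM in the knockouts and Gstm7 from 0.414 to 0.974 CPM in the controls and 2.10 to 3.04 CPM in the knockouts. The tested mu-class genes that were no members did not pass the test. Gstm1 had a log2 fold change of 0.22 ± 0.12, adjusted p = 0.349, Gstm5 a log2 fold change of 0.51 ± 0.12, adjusted p = 0.0627, and Gstm4 a log2 fold change of -0.10 ± 0.49, adjusted p = 0.939. Of the 50-base stretches of Gstm6 and Gstm2 transcripts, 5.97% and 5.65% also occur in other genes, so a small share of their reads may be uncertain. Markers of epithelium were near the floor in all 6 tumors, with all 9 too low to test and Cldn4, Krt5 and Krt14 listed at 0.

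Metabolism and glycosylation accounted for 8 members. Tgds (ENSMUSG00000022130.10, chr14:118111911-118132755, minus strand), a TDP-glucose 4,6-dehydratase of the nucleotide sugar family, was measured at 31.2, 33.2 and 25.2 CPM in control tumors 1, 2 and 3 and 149, 151 and 129 CPM in knockout tumors 1, 2 and 3. The groups were well apart, at 143 ± 12.3 CPM (SD, n = 3) in the knockouts against 29.8 ± 4.19 CPM (SD, n = 3) in the controls, with a ratio of 3.88 between the closest tumors. The lincRNA Gm26773 overlaps 15.1% of the exonic bases of Tgds on the opposite strand, and the sources used here do not give the strand setting of the counting. B4galnt4, which adds N-acetylgalactosamine to N-acetylglucosamine on glycoproteins, had 0.466, 0.136 and 0.455 CPM in the controls and 5.79, 4.63 and 4.44 CPM in the knockouts, below 0.5 CPM in every control. Chst10, the sulfotransferase that completes the HNK-1 carbohydrate of neural cells, ran from 0.254 to 0.724 CPM in the controls and 1.83 to 2.20 CPM in the knockouts.

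Cyb5a, the cytochrome b5 that passes electrons to lipid desaturases and P450 enzymes, was the most abundant member by CPM at 67.6, 138 and 143 CPM in control tumors 1, 2 and 3 and 326, 316 and 288 CPM in knockout tumors 1, 2 and 3. It was also the member nearest to the ratio threshold, with control tumors 2 and 3 about midway between control tumor 1 and the knockouts on a log scale. Abhd3, a phospholipase, stood at 0.169, 0.271 and 0.207 CPM in the controls and 2.70, 2.21 and 2.03 CPM in the knockouts, near the counting limit in every control. Mocos, which sulfurates the molybdenum cofactor of xanthine dehydrogenase and aldehyde oxidase, ran from 4.43 to 6.86 CPM in the controls and 14.4 to 22.6 CPM in the knockouts. Gpt, the cytosolic alanine aminotransferase, ran from 5.34 to 7.01 CPM in the controls and 14.4 to 16.5 CPM in the knockouts, and Fahd2a, a protein of the fumarylacetoacetate hydrolase family, from 0.0847 to 0.745 CPM in the controls and 2.97 to 4.18 CPM in the knockouts.

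Channels, signaling and cell polarity gave 9 members. Ano1 (ENSMUSG00000031075.18, chr7:144588549-144751974, minus strand), the calcium-activated chloride channel of secretory epithelia and of the pacemaker cells of the gut, was measured at 3.73, 3.48 and 4.43 CPM in control tumors 1, 2 and 3 and 18.8, 17.3 and 14.98 CPM in knockout tumors 1, 2 and 3. All knockouts lay above all controls at 17.0 ± 1.91 CPM (SD, n = 3) in the knockouts against 3.88 ± 0.490 CPM (SD, n = 3) in the controls. Mcoln3, an endolysosomal cation channel whose mutation alters hearing and coat color in the mouse, had 0.0847, 19.0 and 19.0 CPM in the controls and 53.8, 49.98 and 50.7 CPM in the knockouts. Control tumor 1 stood apart from the other controls for this gene, with 2 reads, so the gain from control tumors 2 and 3 to the knockouts was 2.62-fold at the closest pair and that from control tumor 1 was far larger.

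Pard6g, a scaffold of the Par polarity complex, was measured at 0.339, 1.67 and 1.61 CPM in control tumors 1, 2 and 3 and 14.9, 16.6 and 17.7 CPM in knockout tumors 1, 2 and 3, 8.91 times higher at the closest pair. Epb41l4a, a FERM-domain protein of the cell cortex, had 3.47, 9.77 and 12.0 CPM in the controls and 24.1, 25.7 and 26.0 CPM in the knockouts, and Arhgef19, an exchange factor for RhoA, had 1.02, 0.724 and 0.910 CPM in the controls and 3.38, 2.06 and 3.37 CPM in the knockouts. Both are close to the threshold, with ratios of 2.01 and 2.03. Pde4a, a phosphodiesterase that degrades cyclic AMP, ran from 4.52 to 6.17 CPM in the controls and 17.9 to 20.9 CPM in the knockouts. Frzb, a secreted antagonist of Wnt ligands, ran from 3.26 to 5.16 CPM in the controls and 13.1 to 16.4 CPM in the knockouts. Nostrin, which traffics endothelial nitric oxide synthase, ran from 1.65 to 4.18 CPM in the controls and 9.52 to 10.6 CPM in the knockouts, and Kank4, a cytoskeletal adaptor, from 0.993 to 1.72 CPM in the controls and 3.73 to 4.61 CPM in the knockouts. The endothelial marker list had a mean of 3.75 to 4.85 in the controls and 3.93 to 4.19 in the knockouts, levels that overlapped between the groups.

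Genes of the cilium and the germ line numbered 6. Tcp11x2, an X-linked gene of the testis, was measured at 0, 0.498 and 0.414 CPM in control tumors 1, 2 and 3 and 7.90, 3.98 and 6.30 CPM in knockout tumors 1, 2 and 3. Control tumor 1 held no read, and the knockouts differed among themselves by 1.99-fold. Cep126, a centrosomal protein needed for the primary cilium, ran from 3.98 to 5.09 CPM in the controls and 13.2 to 15.9 CPM in the knockouts. Exd1, a partner of the piRNA pathway in mouse testis, ran from 1.76 to 2.28 CPM in the controls and 5.61 to 6.68 CPM in the knockouts. Lrrc56, a protein linked to the assembly and transport of ciliary dynein arms, ran from 2.36 to 2.44 CPM in the controls and 5.25 to 5.87 CPM in the knockouts, with the lowest mean fold of the set. Ttc32 and Dzank1 completed the group, Ttc32 from 0.296 to 2.86 CPM in the controls and 5.82 to 8.11 CPM in the knockouts and Dzank1 from 1.99 to 2.53 CPM in the controls and 5.43 to 7.27 CPM in the knockouts. A list of 20 other germline genes that are silent in most somatic cells was also measured. Of these, 16 were too low to test, and edgeR and DESeq2 called 0 of the 4 tested, with 0 at an unadjusted p below 0.05.

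Gene expression factors numbered 4. Gspt2 (ENSMUSG00000071723.7, chrX:94636069-94643244, plus strand), the release factor eRF3b that ends translation and a retrocopy of Gspt1, was measured at 1.27, 0.814 and 0.828 CPM in control tumors 1, 2 and 3 and 12.0, 12.9 and 11.3 CPM in knockout tumors 1, 2 and 3. The groups were far apart at 12.1 ± 0.817 CPM (SD, n = 3) in the knockouts against 0.971 ± 0.260 CPM (SD, n = 3) in the controls. Its parent gene Gspt1 was abundant and did not pass the test, at 268 ± 10.5 CPM (SD, n = 3) in the knockouts against 284 ± 16.8 CPM (SD, n = 3) in the controls and a log2 fold change of -0.13 ± 0.07, adjusted p = 0.329, and no 50-base stretch of the Gspt2 transcript occurs in another gene. Among the 9 other genes of translation termination that were tested, edgeR called 0, though DESeq2 called 2 lower and 3 on the lower side had an unadjusted p below 0.05. Osr2, a zinc finger factor of palate and limb development, ran from 0.847 to 0.950 CPM in the controls and 2.00 to 2.90 CPM in the knockouts, and Plag1, a growth-promoting factor of fetal tissues, from 0.543 to 0.745 CPM in the controls and 1.56 to 2.62 CPM in the knockouts.

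Zfp976, a zinc finger gene of a cluster on chromosome 7, ran from 0.423 to 1.16 CPM in the controls and 3.68 to 4.13 CPM in the knockouts. It shares 20.4% of its 50-base stretches with other genes, among them Zfp975 and Gm2381, so its level is uncertain to that extent. Gm2381, which lies 207 kb from it by lowest coordinate, went the other way, at 2.33, 7.74 and 5.59 CPM in control tumors 1, 2 and 3 and 0.254, 0.0362 and 0.138 CPM in knockout tumors 1, 2 and 3, with a log2 fold change of -5.22 ± 0.71, adjusted p = 0.0229. Zfp975 did not pass the test, at 3.20 ± 0.546 CPM (SD, n = 3) in the knockouts against 3.15 ± 0.280 CPM (SD, n = 3) in the controls, with a log2 fold change of -0.02 ± 0.21, adjusted p = 0.967.

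Striated muscle contributed 3 members. Myh2, the myosin heavy chain of fast oxidative fibers, was measured at 0.212, 0.0452 and 0.869 CPM in control tumors 1, 2 and 3 and 1.82, 61.3 and 9.61 CPM in knockout tumors 1, 2 and 3, and Myl3, a myosin light chain of slow muscle and heart, at 0.0423, 0 and 0 CPM in the controls and 0.127, 5.86 and 1.14 CPM in the knockouts. Both were highest in knockout tumor 2, which also had the highest muscle marker mean, and knockout tumor 1 held only 3 reads of Myl3. Control tumor 3, with a muscle marker mean of 9.07, nonetheless held little of either. The part of muscle tissue in these levels was not tested. Of the 50-base stretches of Myh2, 24.6% also occur in other genes, mainly the neighboring myosins Myh1, Myh8 and Myh4, and Myl3 did not pass the low-count filter. Rnf207, a ubiquitin ligase known from heart muscle, differed from them, at 0.127, 0.0452 and 0.124 CPM in the controls and 3.08, 2.39 and 3.75 CPM in the knockouts, with similar levels in all the knockouts.

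H2-Eb2, a class II major histocompatibility beta chain found in B cells and other antigen-presenting cells, was measured at 2.499, 3.08 and 1.61 CPM in control tumors 1, 2 and 3 and 22.5, 9.52 and 17.7 CPM in knockout tumors 1, 2 and 3. The groups did not overlap, and the knockouts differed by 2.37-fold among themselves. Its abundant neighbor H2-Eb1 lay at 469 ± 131 CPM (SD, n = 3) in the knockouts against 274 ± 62.1 CPM (SD, n = 3) in the controls and did not pass the test, with a log2 fold change of 0.72 ± 0.23, adjusted p = 0.136. The leukocyte marker mean was 5.58 to 6.89 in the controls and 6.32 to 6.69 in the knockouts. That of T cell markers was 2.16 to 2.74 in the controls and 2.73 to 3.66 in the knockouts. For the T cell list edgeR called 0 of 8 tested genes, with 5 higher at an unadjusted p below 0.05 and 3 called higher by DESeq2. The part of immune cells in the level of H2-Eb2 was not tested.

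Most members differed by no more than 1.5-fold among the knockout tumors. Their median spread was still wider than that over the coding genes at the level minimum, as given below. The share of those coding genes within 1.5-fold was not counted, and the rule itself favors a high lowest knockout. The highest knockout was no more than 1.5 times the lowest in 38 of 48, and more than 2 times in 3, namely Myh2, Myl3 and H2-Eb2. The median coefficient of variation among the knockouts was 11.9%, against 8.16% over the 11866 coding genes at the level minimum. Among the controls the median was 33.0%, and that over those coding genes was not computed. The rule favors low controls, and the median member had 88.5 reads over the 3 control libraries. The control and knockout medians are therefore not on equal terms. The highest knockout level fell in knockout tumor 1 for 22 members, tumor 2 for 10 and tumor 3 for 16.

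Control tumor 1 was lower than the other controls for a number of members. In 9 of the 48 (18.8%) its level was below 0.5 of both other controls, namely Pard6g, Armcx1, Tcp11x2, Fahd2a, Dok5, Mcoln3, Ttc32, Epb41l4a and Cyb5a. The same held for 5.73% of the coding genes at the level minimum. Control tumor 2 was below 0.5 of both others in 4 members and control tumor 3 in 0, against 0.320% and 0.0590% of those coding genes. Those coding genes were not matched to the members in level, and the rule favors low controls, so the shares are not on equal terms. Tcp11x2 had only 0, 11 and 10 reads in control tumors 1, 2 and 3 and Fahd2a 2, 10 and 18, while Cyb5a had 1596, 3045 and 3464. Control tumor 1 was also the lowest of the 6 tumors in markers of fibroblasts, with a mean of 3.67 against 6.90 and 7.35 in the other controls and 6.37 to 6.45 in the knockouts. It was lowest in macrophage markers too, at 5.50 against 6.25 to 6.93 elsewhere, and in the lists for leukocytes (5.58), T cells (2.16), endothelium (3.75), adipocytes (0.11), skeletal muscle (1.37) and Schwann cells (3.79). In melanocyte markers it was the highest of the 6, at 10.26. The part of these cells in the 9 members was not tested, and the rule rests on the highest control, so control tumor 1 did not set membership for them.

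Applied to 5 tumors, the same rule chose genes whose level in the tumor left out had not been used. That level was set against the other group, whose levels had chosen the genes. The shares that passed are therefore a description and are not on equal terms with the shares of all coding genes. Without knockout tumor 1 the rule took 52 genes, and 45 of them (86.5%) were at least 2 times the highest control in that tumor, against 0.868% of all coding genes at the level minimum. The 7 that were not were Mb, Myh7, Myl2, Tnni1, Tnnt1 and Tnnt2, all genes of striated muscle, and the nucleoside transporter Slc29a2. For knockout tumor 2 the count was 48 of 57 (84.2%) against 0.771%, and for knockout tumor 3 it was 46 of 58 (79.3%) against 0.623%.

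The control tumors gave a less even result. Without control tumor 1 the rule took 68 genes, of which 48 (70.6%) were no more than 0.5 of the lowest knockout in it, against 6.25% of all coding genes at the level minimum. Without control tumor 2 it took 54, of which 48 (88.9%) passed, against 2.24%. Without control tumor 3 it took 192, of which 48 (25%) passed, against 0.733%. The 144 genes that did not pass there included all 10 genes of the muscle marker list. The 48 that passed in each case are the members themselves, because the rule fixes that number, so that only the number taken and the share that passed vary between the controls. Control tumor 3 thus decided membership for more genes than any other tumor.

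**Figure D3:**
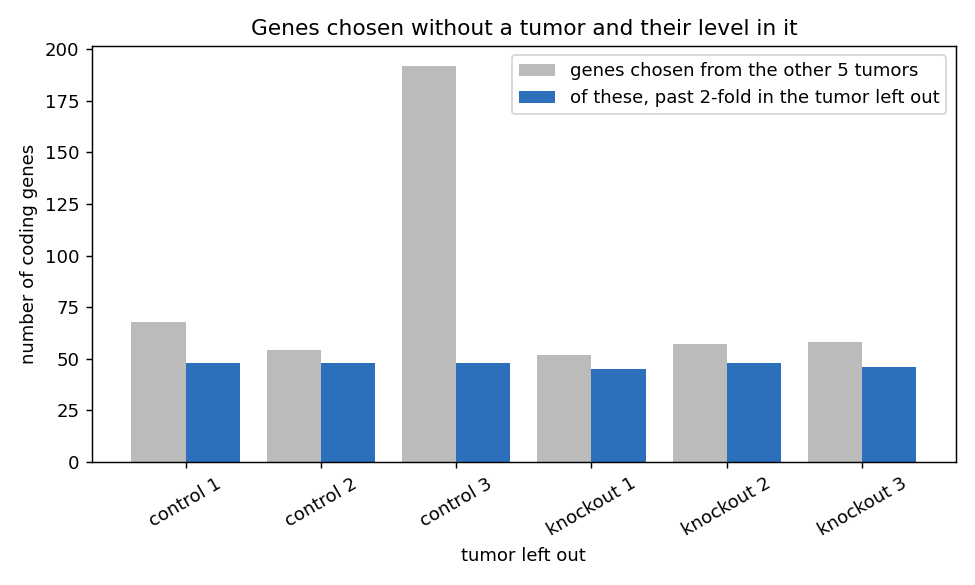
Number of coding genes that the rule chose from 5 tumors (gray) and the number of these that also passed at 2-fold in the tumor left out (blue), for each of the 6 tumors on the horizontal axis. The bars are close for the knockout tumors and for control tumor 2, and far apart for control tumor 3, with 192 chosen and 48 passing.

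The edge of the set was gradual. Just inside the ratio threshold lay Cyb5a at 2.01, Epb41l4a at 2.01 and Arhgef19 at 2.03, and just outside lay the nucleoside transporter gene Slc29a2 at 1.996, the mitochondrial membrane gene Fam210b at 1.99 and the nuclease gene Toe1 at 1.99. At the level threshold the lowest means inside were 2.02 CPM for Gstm6 and for Chst10 and 2.05 CPM for Plag1. The highest outside were 1.96 CPM for Nhlrc1, 1.83 CPM for Trim9 and 1.80 CPM for Cftr.

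The members were spread over 17 of the 21 mouse chromosomes. Chromosomes 2 and 4 held 6 each, chromosomes 3, 7 and 18 held 5 each, and chromosomes 5, 13, 16 and Y held 0. Chromosome 18 had the largest share, 5 of its 288 coding genes at the level minimum (1.74%), against 0.405% over all chromosomes, while the median log2 fold change of its other tested coding genes was 0.02. Tgds lies on chromosome 14, where the other genes had a median log2 fold change of -0.35, and Gpm6a and Hapln4 lie on chromosome 8, where it was -0.25. Over all tested coding genes other than the members the median was -0.0049. Chromosome 2, with 6 members, had the highest median of other tested coding genes, 0.14, and chromosome 4, also with 6, had 0.05. On chromosomes 17, 15 and 7 it was 0.11, 0.09 and 0.08. The part of chromosome-wide shifts in the levels of the members was not tested.

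Neighboring genes were not used by the rule and could be tested. The nearest tested coding gene on each side of the members gave 92 genes, of which edgeR called 7 higher (7.61%) and 3 lower (3.26%), against 2.19% and 3.03% of all tested coding genes other than the members. Their median log2 fold change was 0.08 and 56 (60.9%) lay above 0, against 49.2% of those tested coding genes. DESeq2 called 20 higher and 4 lower, against 850 and 1088 of those 13451 genes. Within 500 kb, 31 of 550 genes were called higher (5.64%) and 7 lower (1.27%), with a median of 0.07. These calls depended on single tumors. edgeR called 0 of the 92 in either direction without knockout tumor 1, without knockout tumor 2 or without control tumor 2, where an unadjusted p below 0.05 was still met by 21, 23 and 20 on the higher side and by 4 on the lower side each time. Without control tumor 3 it called 1 higher and 1 lower, and without knockout tumor 3 it called 4 higher and 1 lower. With all tumors, 23 neighbors on the higher side and 6 on the lower had a p under 0.05 before adjustment. The same held for 1500 and 1775 of the 13451 tested coding genes other than the members. Over all genes tested, the counts higher and lower were 1110 and 1362 without knockout tumor 1. They were 1289 and 1529 without knockout tumor 2, and 1516 and 1302 without control tumor 2.

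Some genes near members were also higher in the knockout tumors. Hras, the Ras GTPase gene, lies 0.152 kb from Lrrc56 and rose from 22.6 ± 1.45 to 38.2 ± 4.75 CPM (SD, n = 3; log2 fold change of 0.71 ± 0.11, adjusted p = 0.0275). Around Lrrc56 and B4galnt4, which lie 122 kb apart on chromosome 7, 8 of 34 tested genes within 500 kb of Lrrc56 were called higher and 0 lower, and 29 lay above 0. These 8 were Ptdss2, Hras, Cd151, Slc25a22, Rnh1, Taldo1, Phrf1 and Chid1, with log2 fold changes from 0.33 to 0.71. For comparison, mean levels differed 14.1-fold for B4galnt4 and 2.30-fold for Lrrc56. Next to Ttc32, the ciliary transport gene Wdr35 rose (log2 fold change of 0.48 ± 0.08, adjusted p = 0.0350), and next to Exd1, the calcineurin-like gene Chp1 rose (log2 fold change of 0.38 ± 0.07, adjusted p = 0.0376). Also called higher were Dnajc10 beside Frzb (log2 fold change of 0.32 ± 0.06, adjusted p = 0.0430), Ppp1r16a beside Gpt (log2 fold change of 0.46 ± 0.10, adjusted p = 0.0486) and Fam210b, the nearest tested gene on one side of Dok5 but 1466 kb away (log2 fold change of 1.21 ± 0.14, adjusted p = 0.0143). On the other side of Dok5, Pfdn4, at 213 kb, did not pass the test (adjusted p = 0.203 by edgeR).

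On the X chromosome, Armcx1 and Tcp11x2 lie 933 kb apart among related genes of the Armcx family. Armcx2 rose from 90.6 ± 3.17 to 151 ± 4.67 CPM (SD, n = 3; log2 fold change of 0.69 ± 0.07, adjusted p = 0.00997). Armcx5, beside Tcp11x2, rose (log2 fold change of 0.88 ± 0.10, adjusted p = 0.0154), as did Bhlhb9 (log2 fold change of 0.91 ± 0.08, adjusted p = 0.00889). All 13 tested genes within 500 kb of Armcx1 had a log2 fold change above 0, and 3 of them were called higher. Over all tested coding genes other than the members, 49.2% lay above 0 and edgeR called 2.19% higher. The nearest tested genes on either side of Zswim5, Urod (adjusted p = 0.0941 by edgeR) and Mutyh (adjusted p = 0.668 by edgeR), did not pass the test. Farther out, within 500 kb of Zswim5, Toe1 rose from 20.1 ± 2.08 to 49.3 ± 5.68 CPM (SD, n = 3; log2 fold change of 1.25 ± 0.11, adjusted p = 0.00889). Within 500 kb of Exd1, 5 of 23 tested genes were called higher, and within 500 kb of H2-Eb2 4 of 45. The windows named for calls higher were those with the most of them, and most members had fewer.

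Other members stood against their surroundings. Beside Tgds, the melanin synthesis gene Dct fell from 8345 ± 1470.4 to 5160.2 ± 57.9 CPM (SD, n = 3; log2 fold change of -0.75 ± 0.15, adjusted p = 0.0434), and Gpr180, 4.40 kb away, did not pass (log2 fold change of -0.32 ± 0.08, adjusted p = 0.0732). Of the 4 tested genes within 500 kb of Tgds, 0 lay above 0. Beside Chst10, the gene Lonrf2 fell from 2.49 ± 0.288 to 0.393 ± 0.0890 CPM (SD, n = 3; log2 fold change of -2.69 ± 0.27, adjusted p = 0.0103). Beside Naalad2, the chaperone gene Chordc1 fell (log2 fold change of -0.50 ± 0.08, adjusted p = 0.0318). Within 500 kb of Gspt2, 0 of 7 tested genes lay above 0, and within 500 kb of Gpm6a 1 of 2 did.

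**Figure D4:**
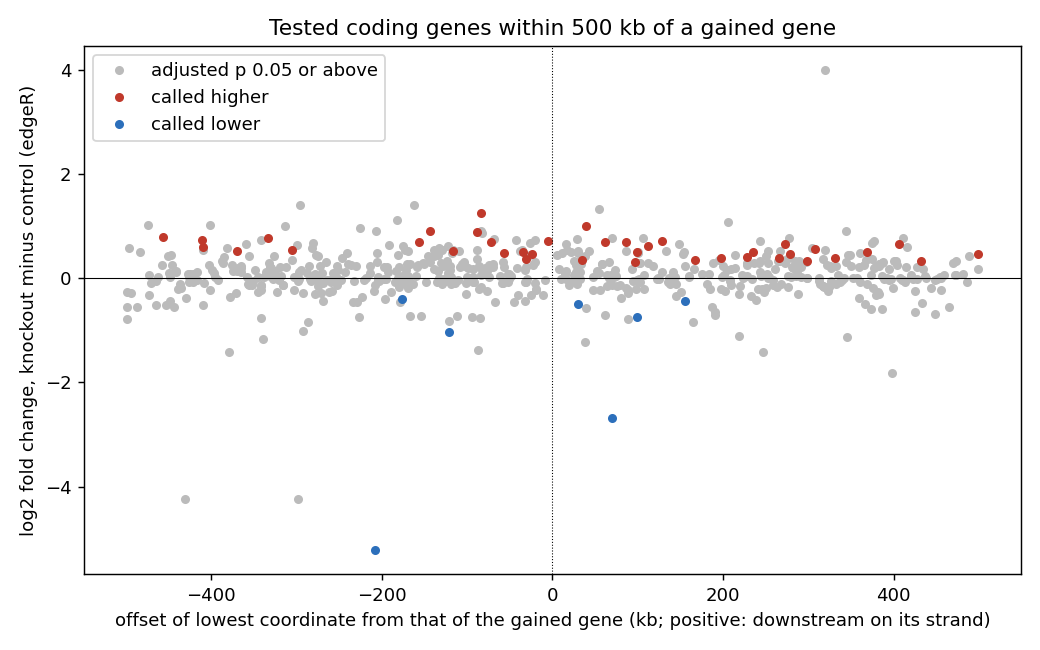
edgeR log2 fold change (knockout minus control) of tested coding genes, other than members, within 500 kb of a gained gene, against the offset of their lowest coordinate from that of the gained gene in kb, positive downstream on its strand; a gene near several gained genes is drawn once for each. Most points lie near 0, calls higher (red) outnumber calls lower (blue) at 31 against 7 distinct genes, and the lowest blue point is Gm2381 at -5.22.

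Relatives of the members, taken as tested coding genes with the same symbol root, moved in both directions. Common descent was not checked, so some of these genes may share only a name with a member. Of 177, 5 were called higher (2.82%) and 7 lower (3.95%), close to the 2.19% and 3.03% of the background, and their median log2 fold change was -0.03. DESeq2 called 13 higher and 17 lower, against 850 and 1088 of the 13451 tested coding genes other than the members. Those higher were Armcx2, Armcx5, Zswim1 (log2 fold change of 0.64 ± 0.11, adjusted p = 0.0367), Kank2 (log2 fold change of 0.34 ± 0.07, adjusted p = 0.0455) and Mylk (log2 fold change of 0.64 ± 0.13, adjusted p = 0.0472), the last a kinase that shares only letters of its symbol with Myl3. Lower were Abhd6 (log2 fold change of -1.20 ± 0.12, adjusted p = 0.00997), Dok6 (log2 fold change of -3.49 ± 0.48, adjusted p = 0.0226), Pde8a, Pde12, Pard3, Pard3b and Sema4c. Among the Dok adaptors the directions were opposite, Dok5 gained and Dok6 at 2.67, 1.63 and 1.12 CPM in the controls and 0.211, 0.109 and 0.172 CPM in the knockouts. Like the neighbors, the relatives gave 0 calls in either direction without knockout tumor 1, where an unadjusted p below 0.05 was met by 13 on the higher side and 19 on the lower.

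Pathways around the members were described from lists, with the members themselves taken out. Over all pathway lists 7 of 228 tested genes were called higher and 11 lower by edgeR, and 17 and 17 by DESeq2. The edgeR background over tested coding genes other than the members was 2.19% higher and 3.03% lower. DESeq2 called 6.5% higher and 8.12% lower over all genes tested. Among 18 tested anoctamins and other chloride channels, Cftr (log2 fold change of 2.00 ± 0.31, adjusted p = 0.0293) and Clcn7 (log2 fold change of 0.53 ± 0.09, adjusted p = 0.0331) rose and Clcn3 (log2 fold change of -0.69 ± 0.14, adjusted p = 0.0462) and Lrrc8a (log2 fold change of -0.50 ± 0.10, adjusted p = 0.0462) fell, and DESeq2 called 4 higher and 2 lower. Cftr, the channel mutated in cystic fibrosis, met the ratio of the rule but not its level. In the polarity complexes that hold Pard6g, 14 genes were tested, of which Lin7c rose (log2 fold change of 0.39 ± 0.07, adjusted p = 0.0348) and the Par scaffolds Pard3 (log2 fold change of -0.51 ± 0.09, adjusted p = 0.0367) and Pard3b (log2 fold change of -1.46 ± 0.27, adjusted p = 0.0393) fell, and DESeq2 also called 1 higher and 2 lower.

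The families of the other leading members gave few calls. Of 5 tested relatives of glutamate carboxypeptidase 0 rose and 1 fell, Naaladl2 (log2 fold change of -1.68 ± 0.35, adjusted p = 0.0488), while DESeq2 called 0 of the 5 in either direction. In the SWIM zinc finger family, Zswim1 rose among 7 tested, and DESeq2 called 2 higher. edgeR called 0 of 4 tested proteolipid genes, with 1 higher at an unadjusted p below 0.05 and 1 higher by DESeq2. It called 0 of 17 nucleotide sugar enzymes, of which 1 on each side had an unadjusted p below 0.05 and 1 was called lower by DESeq2. Among 8 transferases related to B4galnt4, 0 were called by either tool and 0 had an unadjusted p below 0.05.

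For Wnt signaling, the list that fits Frzb, 0 of 27 tested genes rose and 2 fell, the receptor Fzd6 (log2 fold change of -1.13 ± 0.12, adjusted p = 0.0120) and the ligand Wnt5b (log2 fold change of -1.46 ± 0.26, adjusted p = 0.0363). DESeq2 called 1 Wnt gene higher and 4 lower, and before adjustment 4 and 6 had an edgeR p under 0.05. In axon guidance 0 of 26 rose and 2 fell, Epha3 (log2 fold change of -0.63 ± 0.11, adjusted p = 0.0331) and Nrp1 (log2 fold change of -0.44 ± 0.08, adjusted p = 0.0399), while DESeq2 called 0 and 4 and an edgeR p under 0.05 before adjustment was met by 2 and 5. edgeR called 0 of 20 Notch genes, with an unadjusted p below 0.05 in 1 higher and 5 lower genes and 0 calls by DESeq2. Of 20 p53 targets, Zmat3 rose (log2 fold change of 0.53 ± 0.11, adjusted p = 0.0493) and Gdf15 fell (log2 fold change of -1.83 ± 0.35, adjusted p = 0.0411). Of these 20, 15 had a log2 fold change above 0, and DESeq2 called 5 higher and 1 lower. Before adjustment, 9 on the higher side and 1 on the lower had an edgeR p under 0.05. Of the 13451 tested coding genes other than the members, 49.2% lay above 0. DESeq2 called 850 of those higher and 1088 lower, and 1500 and 1775 had an edgeR p under 0.05 before adjustment.

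Factors of gene silencing gave 2 calls among 33 tested genes of Polycomb and DNA methylation. The histone-binding subunit gene Rbbp7 rose from 159.9 ± 1.92 to 261 ± 19.6 CPM (SD, n = 3; log2 fold change of 0.66 ± 0.07, adjusted p = 0.0133), and the de novo methyltransferase gene Dnmt3b from 7.002 ± 0.563 to 12.2 ± 1.79 CPM (SD, n = 3; log2 fold change of 0.75 ± 0.15, adjusted p = 0.0456). The median log2 fold change of the list was -0.02, and 15 of the 33 lay above 0. DESeq2 called 2 higher and 0 lower, and 5 and 2 had an edgeR p under 0.05 before adjustment. Of all tested coding genes other than the members, edgeR called 2.19% higher and 3.03% lower. The part of these factors in the levels of the members was not tested.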

How the data were processed

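Total RNA of 6 tumors was sequenced, 3 per group, 1 library each. Each deposited file gives unnormalized gene counts. The submitters' processing notes list the builds mm10 and GRCm38 and the tools HTSeq, SAMtools, STAR, cutadapt and Trim Galore, with no version or role. Whether counting used strand is not given in the sources. All 55536 gene identifiers matched the GENCODE M21 annotation, which supplied coordinates and exonic lengths for RPKM. Rows naming no gene were left out of library totals and tests. Reads on no gene were 16.7% to 18.2% of the reads listed and ambiguous reads 1.21% to 1.38%. Intervals of counting error do not cover duplicate reads.

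Levels of single genes are CPM over the summed gene counts. Genes other than the members were tested with edgeR 4.0.16 in R 4.3.3 (quasi-likelihood F test, robust, TMM scaling, filterByExpr with a minimum count of 10 and total of 15, genotype as the only term), with Benjamini-Hochberg adjustment over 15696 genes at 0.05. Of the members, 47 of 48 passed that filter. DESeq2 1.42.0 was an alternative. Tables were handled in Python 3.11.15 with pandas 2.3.3. List levels are means of log2 (CPM + 0.5), over listed genes or, where a value per tumor is given, over tested ones.

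Relatives share a symbol root with a member, in families of at most 30 coding genes. Similar sequence was sought as exact stretches of 50 bases shared with transcripts of other genes. Promoter windows come from RefSeq on GRCm38.p6, the window nearest the GENCODE start being used. The members, lists and tests were chosen with earlier results of these data known, and function groups were assigned after the members were seen. Values in every tumor are given for the 6 marker genes (Gpm6a, Zswim5, Gspt2, Naalad2, Tgds and Ano1), the 10 members with the largest ratio, the 10 with the highest mean level and the 3 nearest the ratio threshold. Called neighbors, relatives and list genes are named, up to 5 per list, as are the 3 coding genes just outside the threshold. Values in every tumor are also given for H2-Eb2, Myl3, Atm, Gm2381 and Dok6, and H2-Eb1, Zfp975, Gpr180, Gstm1, Gstm4 and Gstm5 are named, all chosen after their values were seen. Genes within 500 kb were an alternative to the nearest neighbors. Other alternatives were other scalings, thresholds and filters, a tumor-number block and each tumor left out.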

Additional observations from a re-analysis of the deposited data

How the results depend on the processing

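The number of gained genes, 48, was 40 with TMM scaling and 41 with median-ratio scaling. Under TMM, Gstm6 and Chst10 fell below the level minimum and Sema4g, Mocos, Gstm2, Arhgef19, Epb41l4a and Cyb5a below the ratio. A ratio of 1.5 gave 136, a ratio of 3 gave 21 and a mean minimum of 5 CPM gave 29. Leaving out a tumor gave 52 to 192, the highest without control tumor 3. Of all genes tested, edgeR called 347 higher and 431 lower, and DESeq2 called 920 and 1150. Leaving out a tumor gave 0 to 587 higher and 2 to 622 lower. Without knockout tumor 1 the counts were 0 and 2, with 1110 and 1362 at an unadjusted p below 0.05. Counts also moved by over 1.5 times without control tumor 2 (19 and 9), control tumor 3 (55 and 55), knockout tumor 2 (22 and 20) and knockout tumor 3 (97 and 99). Neighbors called higher, 7, became 20 with DESeq2, 31 within 500 kb and 0 to 9 without a tumor. Those called lower, 3, became 7 within 500 kb and 0 to 4 without a tumor. Relatives called higher, 5, became 13 with DESeq2 and 0 to 8 without a tumor, and those called lower, 7, became 17 and 0 to 13. The cause was not tested. A count of calls has no direction of its own, but the balance of calls did change. With all tumors more genes were called lower than higher. Without control tumor 2 more were called higher (19 and 9), also at an unadjusted p below 0.05 (1516 and 1302). For single genes, 265 values kept their side of the threshold and 240 lost it. With the tumor number as a replicate block, edgeR called 0 genes higher and 0 lower, against 1434 and 1570 at an unadjusted p below 0.05, and 0 neighbors and 0 relatives in either direction. The labels do not say if the numbers pair the tumors. The deviations of same-numbered tumors correlated at 0.04, -0.27 and -0.42, and those of the other pairs at -0.23 to 0.44. Deviations taken from means of 3 tumors cannot decide if the numbers pair them. The planned CpG threshold of 0.75 was not run because too few members have a promoter window. Levels below 0.103 CPM rest on fewer than 3 counts in every tumor.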

Other observations

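The thresholds that chose the coding genes were also met by 3 genes that code for no protein. The pseudogene Olfr289-ps1 on chromosome 3, a remnant of an odorant receptor gene, had 0 counts in each control tumor and 73, 75 and 73 counts in the knockout tumors. The lincRNA Gm49497 on chromosome 15 had 1, 0 and 1 counts in the controls and 66, 84 and 95 in the knockouts. Gm13110, a processed transcript on chromosome 4, had 30, 31 and 21 counts in the controls and 68, 135 and 96 in the knockouts. None of the 3 lies within 500 kb of a gained coding gene, the nearest being Gm13110 at 2327 kb from Rnf207.

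Glutathione S-transferases and Ephx1 belong to the enzymes that handle electrophiles and oxidants, and 7 further genes of redox defense were looked at after the members were known, so they carry no test. Nqo1 lay at 1.10, 2.99 and 2.61 CPM in the controls and 5.49, 6.73 and 4.86 CPM in the knockouts. Mean levels in the knockouts were 1.10 times those in the controls for Gclm, 1.31 times for Srxn1, 0.949 times for Txnrd1, 0.696 times for Gclc and 0.299 times for Slc7a11. Hmox1 overlapped between the groups, at 267, 305 and 442 CPM in the controls and 155, 105 and 454 CPM in the knockouts. Gains of detoxification genes stood beside both higher and lower means among these 7 genes.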
